A study of Homo sapiens with 16 samples.

Results

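H3K4me1 regions gained with GSK-J4 were 1787 of the 22886 autosomal H3K4me1 regions found in BE2C cells of the compound experiment, or 7.81%. The regions were chosen by measured values: the H3K4me1 islands of the 4 libraries given DMSO or GSK-J4 were merged wherever they shared at least 1 bp, and a region was kept where both GSK-J4 libraries and neither DMSO library had an island. An island is a broad stretch of enriched signal called in a single library. BE2C cells are an established human neuroblastoma line in which MYCN is amplified. The marks were mapped by CUT&Tag, in which an antibody brings a transposase to the marked nucleosomes and the DNA beside them is cut and tagged. For H3K4me1 and for H3K27me3, cells were given 2.5 µM GSK-J4 or 0.1% DMSO for 72 h, and in a separate experiment the siRNA siKDM6B33 against KDM6B or the control siRNA siCtrl for 72 h, with 2 libraries in each of the 8 groups. One cell line and one siRNA against KDM6B were used, so a p-value covers only the spread between these libraries.

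Monomethylation of lysine 4 on histone H3 (H3K4me1) is laid down mainly by KMT2C and KMT2D and marks enhancers, poised as well as active, together with the flanks of promoters. Trimethylation of lysine 27 (H3K27me3) is written by the Polycomb complex PRC2 and accompanies silencing, and KDM6A and KDM6B take it off. GSK-J4 is a cell-permeable pro-drug that cells convert to GSK-J1, an inhibitor of these demethylases. In the study's enzyme assays GSK-J1 also acted in part on KDM5A, another histone demethylase. In adrenergic neuroblastoma, enhancers are held by a circuit of transcription factors that includes HAND2, GATA3 and ISL1. Of 25 genes for such factors and their adrenergic partners, 24 had an H3K4me1 island within 5 kb in each DMSO library.

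The sequences below come from regions that stand for the main patterns described further on. Each is 300 bases of the hg19 plus strand around the tallest GSK-J4 narrow peak, and capitals mark matches, on either strand, to the transcription factor motifs searched.

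RUVBL1 (chr3:127935365-127935664, intron of EEFSEC, island in neither siRNA group): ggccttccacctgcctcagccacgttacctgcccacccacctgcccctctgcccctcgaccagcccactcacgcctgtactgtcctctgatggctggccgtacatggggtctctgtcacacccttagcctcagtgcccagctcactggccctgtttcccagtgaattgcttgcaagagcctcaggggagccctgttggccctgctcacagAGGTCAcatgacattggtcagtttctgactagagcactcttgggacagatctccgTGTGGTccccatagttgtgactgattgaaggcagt
JADE1 (chr4:129522473-129522772, intergenic, island in both siRNA groups): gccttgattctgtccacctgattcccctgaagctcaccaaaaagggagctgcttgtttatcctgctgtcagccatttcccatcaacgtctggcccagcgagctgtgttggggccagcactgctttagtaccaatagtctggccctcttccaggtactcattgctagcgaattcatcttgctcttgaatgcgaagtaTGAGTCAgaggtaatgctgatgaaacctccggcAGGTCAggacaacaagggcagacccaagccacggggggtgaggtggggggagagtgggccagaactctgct
CPLX2 (chr5:175269904-175270203, intron of CPLX2, island with siCtrl only): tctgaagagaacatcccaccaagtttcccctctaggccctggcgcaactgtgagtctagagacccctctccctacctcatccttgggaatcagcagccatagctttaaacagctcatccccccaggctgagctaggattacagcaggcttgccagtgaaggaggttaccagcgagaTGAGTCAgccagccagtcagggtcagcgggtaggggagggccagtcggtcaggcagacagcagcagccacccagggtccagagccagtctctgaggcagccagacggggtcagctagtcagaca
DHRS2 (chr14:24163880-24164179, intergenic, island with siKDM6B33 only): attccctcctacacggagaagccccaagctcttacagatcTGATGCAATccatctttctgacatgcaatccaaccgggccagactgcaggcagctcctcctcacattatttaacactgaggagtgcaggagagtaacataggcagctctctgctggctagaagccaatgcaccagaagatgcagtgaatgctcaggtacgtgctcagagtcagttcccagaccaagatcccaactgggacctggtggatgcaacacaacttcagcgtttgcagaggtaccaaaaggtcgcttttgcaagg

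The capitals are AGGTCA (nuclear receptor half-site) and TGTGGT (RUNX) near RUVBL1, TGANTCA (AP-1) and AGGTCA near JADE1, TGANTCA at CPLX2, and TGATGNAAT (ATF4) near DHRS2. The genes naming these windows are those with the nearest protein-coding transcription start, which is not evidence that a region acts on the gene.

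As the rule requires, no gained region had an island in a DMSO library, and the following values describe the choice and support nothing further. The median width was 3000 bp and the widest region spanned 12000 bp, against a median of 4900 bp for the 11956 regions called in all 4 libraries. Island scores, which sum the enrichment over the windows of an island, had medians of 76.7 and 74.5 in the 2 GSK-J4 libraries, against 159 and 163 for regions called in all 4. The lowest scores of gained regions, 51.6 and 52.2, were also the lowest among the regions called in all 4. Just outside the rule lay 1258 regions with islands of both GSK-J4 libraries and 1 DMSO library and 2309 with an island of 1 GSK-J4 library alone. In 991 regions exactly 1 library of each group had an island, so the replicates disagreed in both groups. At 7969 regions they disagreed in at least 1 group. The reverse pattern, islands of both DMSO and neither GSK-J4 library, held for 1174 regions, called lost here. With the lists cut to equal covered length the order turned, to 1109 gained and 1400 lost regions. The nearest DMSO island lay at a median of 14800 bp, and 204 gained regions (11.4%) had one within 2 kb.

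Narrow peaks, called separately from islands in the same libraries, drew the boundary less sharply. A narrow peak summit lay in 72.0% and 70.7% of gained regions in the GSK-J4 libraries and in 39.2% and 36.0% in the DMSO libraries. Both GSK-J4 libraries had one in 1027 regions, and 336 regions (18.8%) had a peak in both GSK-J4 and neither DMSO library. The tallest summit, as a multiple of the genome background of the library, had medians of 91.3 and 89.4 with GSK-J4. In each DMSO library taken alone the median was 0. The summit was higher in both GSK-J4 than in both DMSO libraries in 864 regions (48.3%). A narrow peak was in neither DMSO library in 797 gained regions (44.6%), so the majority carried a DMSO narrow peak without a DMSO island. These heights rest on few reads, since the median summit of all autosomal narrow peaks held 4 to 9 tags in the 8 H3K4me1 libraries. The assay reads a population, so more cells with the mark and more mark per cell cannot be told apart.

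Gained regions lay away from promoters. A protein-coding transcription start was within 1 kb of 156 of them, 8.73% (95% Wilson interval 7.51 to 10.1, counting error only), against 33.6% of lost regions (31.0 to 36.4), 26.8% of regions called in all 4 (26.0 to 27.6) and 24.6% of all merged regions. Of the rest, 977 (54.7%) were centred in introns, 123 (6.88%) in exons and 531 (29.7%) between genes. Introns held 25.7% of lost regions and 40.0% of all merged regions. The median distance to a start was 32472 bp for gained regions, 16944 bp for lost regions and 22220 bp for all merged regions. Median GC content was 49.9% in gained regions and 51.4% over all merged regions, and the observed over expected CpG ratio had medians of 0.211 and 0.255. The ninetieth percentile of this ratio was 0.348 in gained and 0.766 in lost regions. When the starts of all annotated genes were counted, noncoding ones included, 28.7% of gained regions had one within 1 kb, against 45.8% of lost regions, 46.8% of regions called in all 4 and 42.1% of all merged regions.

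**Figure D1:**
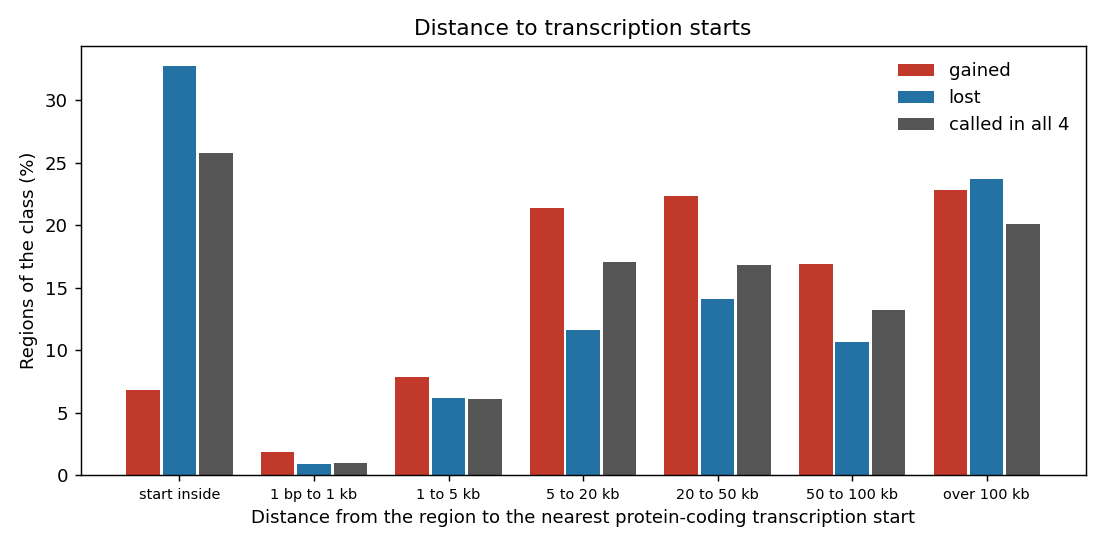
Percent of gained, lost and all-4 regions in each class of distance to the nearest protein-coding transcription start. A start lay inside 6.83% of gained, 32.7% of lost and 25.8% of all-4 regions, and the gained regions exceeded both other classes in every class from 1 bp to 100 kb.

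The regions were spread over all 22 autosomes, from 4.42% of the merged regions of chromosome 19 to 10.0% of those of chromosome 22. By gaps of at most 100 kb, 765 regions (42.8%) fell into 310 clusters of 2 or more, and 14 clusters held 5 or more. Regions of the other classes were not clustered in this way, so these counts have no background beside them. A cluster of 10 regions spanned 256 kb of chromosome 12 (131871601 to 132127600) between ADGRD1, an adhesion G protein-coupled receptor, and SFSWAP, a splicing regulator. Another 9 spanned 277 kb over NAV1, which encodes a neuron navigator that binds microtubules, with IPO9 and SHISA4 beside it. Clusters of 6 included those around the plexin gene PLXNA1 and the gene SEPTIN9, which encodes a cytoskeletal septin.

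The knockdown libraries took no part in choosing the regions. H3K4me1 islands overlapped 45.1% and 44.5% of gained regions in the siCtrl libraries and 23.7% and 23.1% in the siKDM6B33 libraries. The ranges did not overlap, and the siKDM6B33 mean (23.4% ± 0.475, SD, n = 2) was 21.4 percentage points below the siCtrl mean (44.8% ± 0.435, SD, n = 2). In the exact two-sided permutation test p was 0.333, the smallest that 2 against 2 libraries allow, and 0.333 after Benjamini-Hochberg adjustment over the 3 comparisons tested. Regions chosen for H3K4me1 islands under the inhibitor thus had a lower share of islands in both siKDM6B33 libraries than in either siCtrl library. The siKDM6B33 libraries were the deeper ones, with a genome background of 0.107 and 0.105 tags per base against 0.0902 and 0.0849 with siCtrl, and their island lists covered more of the genome (both 113 Mb against 102 and 97.7 Mb).

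Island shares of other regions differed by less. The classes also differed in their distance to starts, as given above, and were not matched for it. The mean difference between siKDM6B33 and siCtrl was -15.3 points over lost regions, -6.9 points over regions called in all 4, -9.49 points over regions with any other pattern and -9.37 points over all merged regions. The siKDM6B33 share was thus 52.2% of the siCtrl share for gained regions, 82.3% for lost regions, 84.3% for other patterns and 92.7% for regions called in all 4. Taken within each library, the share of gained regions minus that of all-4 regions was -49.3 and -49.8 points with siCtrl and -63.9 and -64.2 points with siKDM6B33, a further -14.5 points (exact permutation p = 0.333). Narrow peak heights did not set the gained regions apart from all other classes by their difference in points. Their tallest summit over background had medians of 55.4 and 58.9 in gained regions with siCtrl and of 28.1 and 28.5 with siKDM6B33, whereas in lost regions the medians were 99.8 and 94.3 with siCtrl and 103 and 105 with siKDM6B33 (exact permutation p = 0.333 for each). In regions called in all 4 they were 177 and 177 with siCtrl and 150 and 143 with siKDM6B33, a difference of -30.9 against -28.9 in gained regions, and as a share of siCtrl 82.5% against 49.5%. Over all merged regions the difference was -14.1.

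**Figure D2:**
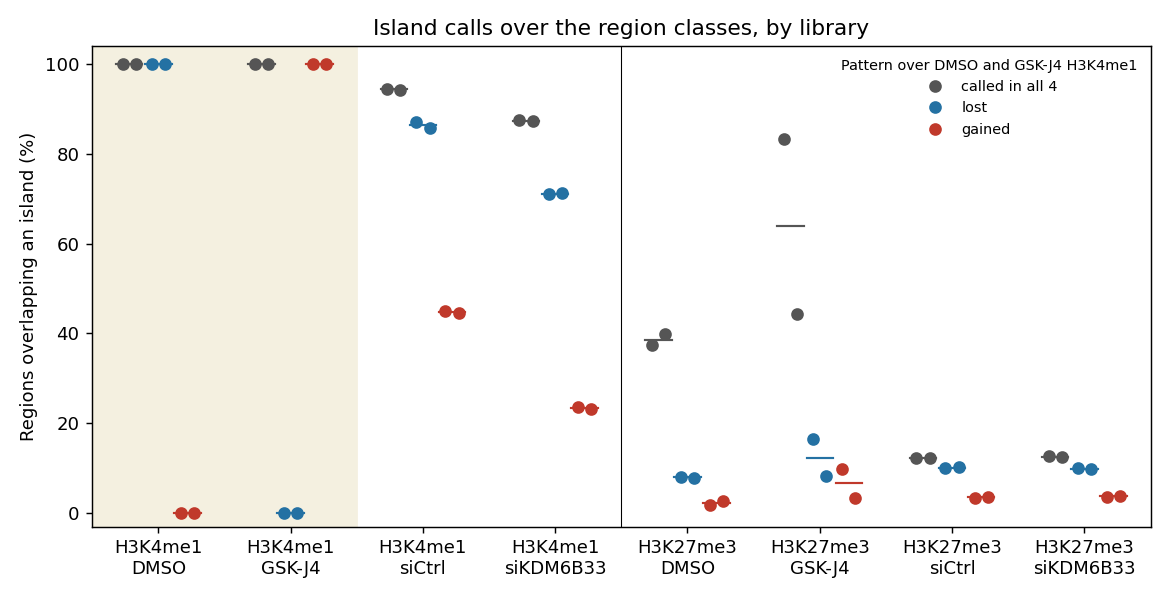
Percent of regions overlapping an island in each of the 16 libraries, by mark and treatment; points are libraries, lines the mean of 2, and the shaded H3K4me1 libraries are those that set the classes. Gained regions average 44.8% with siCtrl and 23.4% with siKDM6B33 for H3K4me1 and below 10% in every H3K27me3 library.

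Region by region, 1052 gained regions (58.9%) had an H3K4me1 island in at least 1 of the 4 siRNA libraries. The other 735 (41.1%) had none, against 11.5% of all merged regions. Islands of both siCtrl and neither siKDM6B33 library covered 394 gained regions, 22.0%, against a background of 13.2% of all merged regions. The opposite pattern, both siKDM6B33 and neither siCtrl library, held for 89, 4.98%, against 5.7%. A further 203 (11.4%) had islands in all 4 siRNA libraries, against 57.1% of all merged regions. A mixed pattern held for 366 (20.5%), against 12.4%. Among gained regions with an island in both siCtrl libraries and either both or neither siKDM6B33 library, 66.0% (394 of 597) had none with siKDM6B33, compared with 25.9% of lost regions, 9.39% of regions called in all 4, 35.5% (1399 of 3944) of regions with any other pattern and 18.8% of all merged regions.

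**Figure D3:**
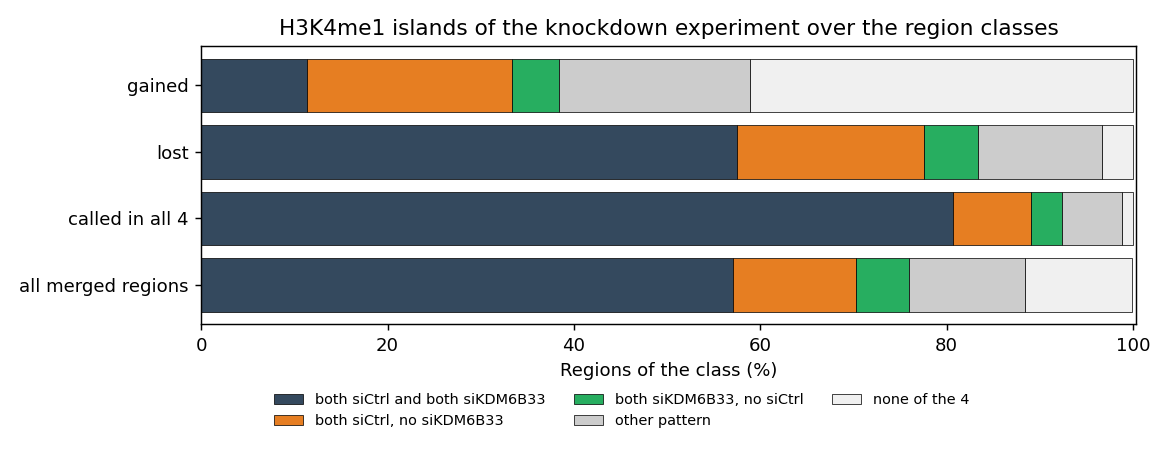
Percent of each region class by its H3K4me1 islands in the siCtrl and siKDM6B33 libraries. Of gained regions 41.1% had no island there and 22.0% had islands with siCtrl only, against 11.5% and 13.2% of all merged regions.

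Position set the gained regions apart among themselves. In the 156 with a start within 1 kb, islands were present in 52.6% and 55.1% with siCtrl and in 47.4% and 44.9% with siKDM6B33. In the 1631 farther away they were present in 44.4% and 43.5% with siCtrl and in 21.5% and 21.0% with siKDM6B33. The gap between promoter-proximal and distal gained regions was 9.92 points with siCtrl and 24.9 points with siKDM6B33, a difference of 15.0 points (exact permutation p = 0.333). Regions in exons, introns and intergenic sequence had similar shares with siKDM6B33, between 17.9% and 22.7%. The siCtrl shares differed more, with 46.3% and 52.8% in exons, 46.2% and 46.2% in introns and 40.7% and 36.3% in intergenic sequence. The siKDM6B33 shares were below the siCtrl shares at both ends of the score range, and whether the gap differs with score was not tested. When the regions were split into 4 equal parts by their lower GSK-J4 score, in the lowest part 44.1% and 41.2% had siCtrl islands and 26.4% and 24.2% had siKDM6B33 islands, and in the highest part 46.3% and 47.4% and then 23.3% and 22.8%.

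H3K27me3 islands overlapped fewer of the gained regions than of all merged regions in each library of the compound experiment. Islands of this mark overlapped 1.85% and 2.63% of them in the DMSO libraries, 9.74% and 3.47% in the GSK-J4 libraries, a mean difference of 4.36 points (exact permutation p = 0.333). With the compared lists cut to equal covered length the difference was 0.42 points (exact permutation p = 0.667). Over all merged regions the shares were 24.0% and 25.3% with DMSO, then 52.0% and 27.9% in the GSK-J4 libraries, a difference of 15.3 points. The difference was 4.3 points over lost regions, 4.54 over other patterns and 25.2 over regions called in all 4. As a share of the DMSO mean, the GSK-J4 mean was 295% for gained regions and 162% for all merged regions. Narrow peaks of H3K27me3 were more frequent than islands, in 21.3% and 26.4% of gained regions under DMSO, then 36.0% and 30.4% under GSK-J4. The second GSK-J4 library lay 0.839 points above the higher DMSO library. The first GSK-J4 library stood apart as a whole, with 16531 autosomal H3K27me3 islands against 7123 to 7941 in the other 3 libraries, and it marked 83.3% of the regions called in all 4, against 37.5% to 44.4% in the others. Without it the difference over gained regions was 1.23 points. In the highest of 4 equal parts of the gained regions by H3K4me1 score, this library had H3K27me3 islands in 21.9%, against 4.03% in the second GSK-J4 library, and the part of this library in the result was not otherwise tested. With both GSK-J4 and neither DMSO library, H3K27me3 was gained at 10 of the 1787 regions (0.56%), against 3.15% of all merged regions.

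After knockdown, H3K27me3 islands overlapped 3.69% and 3.75% of gained regions with siKDM6B33 and 3.47% and 3.58% with siCtrl, a difference of 0.196 points (exact permutation p = 0.333). The direction turned, to -1.09 points, with the compared lists cut to equal covered length. Both siKDM6B33 and neither siCtrl library had one at 4 regions, or 0.224% against 0.45% of all merged regions. The mark was concentrated near starts: with siCtrl it was present at 14.1% and 13.5% of promoter-proximal gained regions and at 2.45% and 2.64% of distal ones.

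Among single regions, the 8 with the highest lower GSK-J4 score were nearest to RUVBL1, TBC1D16, TGM1, MYLK, ADCY5, ERFE, JADE1 and CACNA1D. The highest, at chr3:127933201-127938200 in an intron of EEFSEC, a factor for selenocysteine incorporation, had scores of 324 and 319. Its tallest summits reached 201 and 179 times background with GSK-J4, no narrow peak was called with DMSO, and the siRNA libraries gave 0 and 58.9 (siCtrl) and 28.1 and 47.6 (siKDM6B33). The region over a start of MYLK, which encodes myosin light chain kinase, is at chr3:123419801-123422800 and had summits of 329 and 304 with GSK-J4, 87.9 and 0 with DMSO, 33.3 and 47.1 with siCtrl and 0 and 0 with siKDM6B33. Tall GSK-J4 summits at both follow from the choice of these regions by GSK-J4 score. Another at a start, that of the keratinocyte transglutaminase gene TGM1, had scores of 395 and 277 and no island in any siRNA library. Of these 8 regions, 6 had no H3K4me1 island in any siRNA library, the region near ERFE had a mixed pattern and that near JADE1, a gene for a histone acetyltransferase scaffold, had islands in all 4 (57.9% and 73.7% of its length with siCtrl, 31.6% and 31.6% with siKDM6B33). For CACNA1D, which encodes an L-type calcium channel, the region spanned 7400 bp with no GSK-J4 narrow peak in it, and the only H3K4me1 narrow peak there was in the second DMSO library, at 62.1 times background. In the intron of the adenylate cyclase gene ADCY5 the region also had H3K27me3 islands with GSK-J4, over 39.3% and 100% of its length.

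Gained regions with siCtrl islands alone were led by one near TRIM42 inside CLSTN2, a pair at the complexin gene CPLX2, whose product clamps synaptic vesicle fusion, one near the vesicular amino acid transporter gene SLC6A17 and one in ARAP1. The intronic CPLX2 region (chr5:175268601-175271200) was fully covered in both siCtrl libraries and uncovered in both siKDM6B33 libraries. Its tallest summits were 164 and 179 times background with GSK-J4, 0 and 62.1 with DMSO, 189 and 141 with siCtrl and 0 and 0 with siKDM6B33. The siCtrl and GSK-J4 heights there overlapped, and both DMSO libraries stood below them. The second CPLX2 region, of 7400 bp, held siCtrl islands over 56.8% and 62.2% of its length and no narrow peak in any library.

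In the opposite group, islands with siKDM6B33 as with GSK-J4, the leading regions were nearest to RNF187, C16orf95, LARP6, DHRS2 and HIVEP1. Summit heights overlapped near C16orf95, at 122 and 162 with siKDM6B33 and 66.5 and 153 with siCtrl. They did not near LARP6 (140 and 85.6 against 0 and 35.3) or HIVEP1 (122 and 105 against 0 and 23.6). At the start of RNF187, a ubiquitin ligase gene, islands covered 91.7% and 91.7% of the 4800 bp with siKDM6B33, and summits reached 150 and 171 with siKDM6B33 and 237 and 179 with GSK-J4, against 44.4 and 0 with siCtrl and 87.9 and 0 with DMSO. H3K27me3 islands covered 58.3% and 100% of the same region with GSK-J4 and none of it with DMSO. Near DHRS2, which encodes a short-chain dehydrogenase, the summits were 159 and 190 with siKDM6B33, 0 and 35.3 with siCtrl, 164 and 179 in the GSK-J4 libraries, and 141 and 82.8 in the DMSO libraries. Here the first DMSO library stood at 141 without an island, below but near the GSK-J4 and siKDM6B33 libraries, and the second stood well below them.

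Regions with islands in all 4 siRNA libraries included, besides the one near JADE1, regions near CDKN1C, MOB2, SFSWAP and PIERCE1. The region nearest to CDKN1C, a cyclin-dependent kinase inhibitor gene, lay 36.8 kb away in an intron of the potassium channel gene KCNQ1. For the PIERCE1 and MRPS2 starts, summits with siKDM6B33 (430 and 457) stood above all 6 other H3K4me1 libraries (70.3 to 110).

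By gene, 1361 protein-coding genes were nearest to a gained region, 16.7% of the 8168 nearest to any merged region, and 301 of them were nearest to 2 or more. SFSWAP had 9 of its 18 merged regions gained, all upstream at 68.0 to 302 kb from the start. Islands overlapped 8 and 7 of the 9 with siCtrl and 2 and 2 with siKDM6B33. At NAV1, 7 of 20 regions were gained, all inside the gene, and islands overlapped 2 and 3 of them with siCtrl and 0 and 0 with siKDM6B33. TBC1D22A, which encodes a Rab GTPase-activating protein, had 8 of 13 regions gained, with 4 and 4 covered with siCtrl and 4 and 4 with siKDM6B33. The siKDM6B33 counts thus stood below siCtrl at SFSWAP and NAV1 and equalled them at TBC1D22A. AUTS2, a neurodevelopmental gene of a Polycomb-associated complex, had 7 of 46 gained, TSNARE1 6 of 19, the synaptic gene SYNDIG1 6 of 13, SEPTIN9 6 of 21, and MYC, whose regions lay 132 to 436 kb from the start, 5 of 22.

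**Figure D4:**
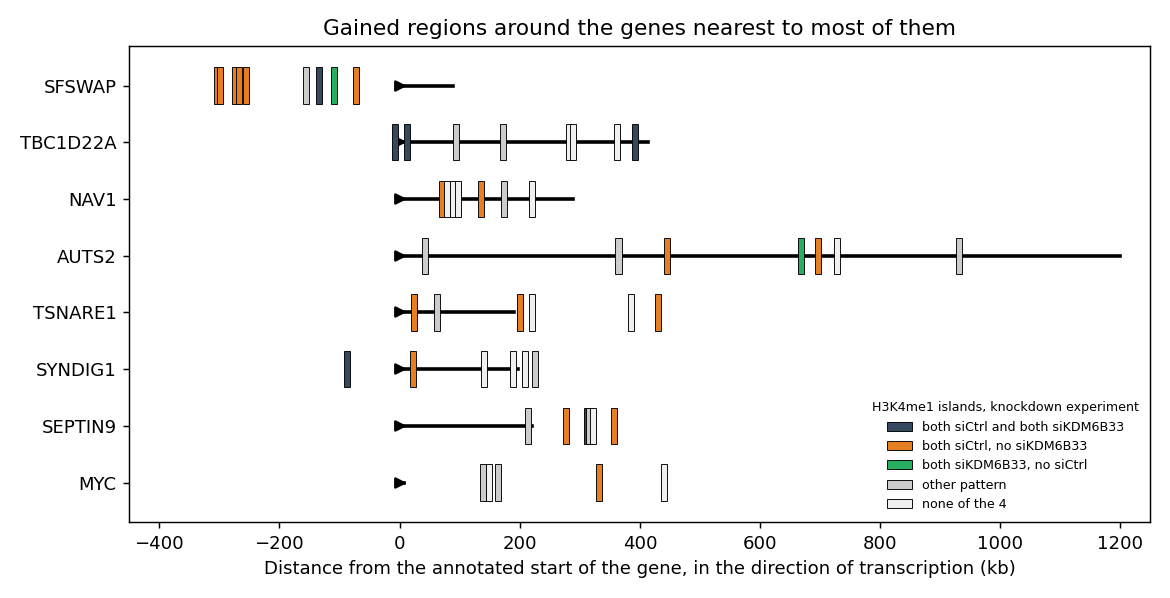
Gained regions (boxes, drawn at least 10 kb wide) around the 8 genes nearest to most of them, by distance in kb from the annotated gene start; black lines are gene bodies and colours the H3K4me1 islands of the knockdown experiment. The 9 regions nearest to SFSWAP lie upstream and 6 of them had islands with siCtrl only, and the 7 at NAV1 lie inside the gene.

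Gene lists drawn from neuroblastoma and neuronal biology had between 0.0% and 9.17% of their merged regions gained, and they also differed in how many merged regions their genes had. Of 35 axon guidance genes, 13 were nearest to a gained region, 44.8% of the 29 nearest to any region against 16.7% over all genes, but of the 254 regions nearest to them 7.87% were gained, beside 7.81% over all regions. They included PLXNA2, a semaphorin receptor gene, with 3 of 31 regions gained, the repellent ligand gene SLIT3 with 3 of 19, all 3 with siCtrl islands only, and EFNA5, PLXNA4, SEMA6D (2 each) and NRP1 (1). Of the 109 regions near synaptic adhesion and glutamate receptor genes 9.17% were gained, with 4 at GRID1, a delta glutamate receptor gene, 3 of them with siCtrl islands only. CADM2 and DLG2 had 2 each, and GRIK4 and GRM7 had 1 each. Both CADM2 regions had siKDM6B33 islands only.

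The adrenergic factor genes, all 25 with merged regions, had 7 of 222 gained (3.15%): ZNF536 had 4, and HAND2, SIX3 and DBH had 1 each, the last 3 with islands in all 4 siRNA libraries. Of the 28 mesenchymal state genes FOSL2 and SOX9 had 2 gained regions each and FOS and MAML2 had 1, 6 of 92 regions (6.52%). Both SOX9 regions had siCtrl islands only. Receptor and retinoid genes had 5 of 143 (3.5%): NTRK3 had 2, and ALK, DHRS3 and EGFR had 1 each. TGF-beta, BMP and WNT genes had 8 of 171 (4.68%): ID2 had 3, WNT11 had 2, and TCF7, TGFBR3 and WNT7B had 1 each. Both WNT11 regions had siCtrl islands only. Ion channel genes had 7 of 106 (6.6%), led by CACNA1D and KCNMA1 with 2 each, with 1 each at CACNA2D3, KCNN3 and SCN9A. Cadherins had 6 of 86 (6.98%), with 2 each at CDH18 and CDH23 and 1 each at CDH10 and CDH11. Of 30 E2F and cell cycle genes only 13 were nearest to any merged region, and 1 of their 35 regions was gained (2.86%), 140 kb from the cyclin D1 gene CCND1 and without islands in the siRNA libraries. Of 15 PRC2, KDM6 and KMT2 genes only 6 were nearest to any merged region, and 0 of their 27 regions were gained, so few regions stand behind both counts.

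Stress response genes had 3 of 45 regions gained (6.67%, below the 7.81% of all merged regions), at CHAC1, SESN2 and CDKN1A. CHAC1, a glutathione-degrading enzyme gene that ATF4 induces, had one over its start with islands in all 4 siRNA libraries. SESN2, a sestrin gene, had one of 5400 bp at 2.57 kb with islands in both siKDM6B33 and neither siCtrl library. CDKN1A, which encodes the inhibitor p21, had one 30.2 kb away with none.

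Motifs, 13 in all, were searched in the 300-base window at the tallest H3K4me1 summit of the DMSO and GSK-J4 libraries, or at the middle of the region where there was none. The motif most raised in proportion in gained over all merged regions was TGATGNAAT. This is the composite site that ATF4, a factor of the integrated stress response, binds with C/EBP proteins. It was present in 64 gained regions, 3.58% (95% Wilson interval 2.81 to 4.55), against 1.45% of lost regions (0.906 to 2.31), 1.19% of regions called in all 4 (1.01 to 1.4) and 1.54% of all merged regions. Farther than 1 kb from a start the shares were 3.86% in gained, 2.05% in lost and 1.34% in all-4 regions. With the window at the middle of every region, where no peak was used, they were 2.85%, 0.767% and 1.1%. Only 2 of the 64 lay beside a stretch of the Alu repeat, and other repeats were not checked. A match is a description and does not show that a factor binds.

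Over all merged regions without a DMSO island, the motif was in 2.56% of those with an island in 1 GSK-J4 library and in 3.58% of those with both, the gained regions. With an island in 1 DMSO library the shares were 1.08%, 0.908% and 1.99% for 0, 1 and 2 GSK-J4 libraries. With both DMSO libraries they were 1.45%, 1.1% and 1.19%, with no rise across the number of GSK-J4 libraries. Among gained regions the share varied with the knockdown state, which is given as a description. The motif was in 5.85% (43 of 735; 4.37 to 7.79) of those without an island in any siRNA library and in 8.99% (8 of 89; 4.63 to 16.7) of those with siKDM6B33 islands only. It was in 1.02% (4 of 394; 0.395 to 2.58) of those with siCtrl islands only and in 0.985% (2 of 203) of those with islands in all 4. Regions that had siKDM6B33 islands only but were not gained with GSK-J4 held it in 0.905% (11 of 1216). Regions without an island in any siRNA library that were not gained held it in 2.37% (45 of 1898), also above the 1.54% of all merged regions.

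**Figure D5:**
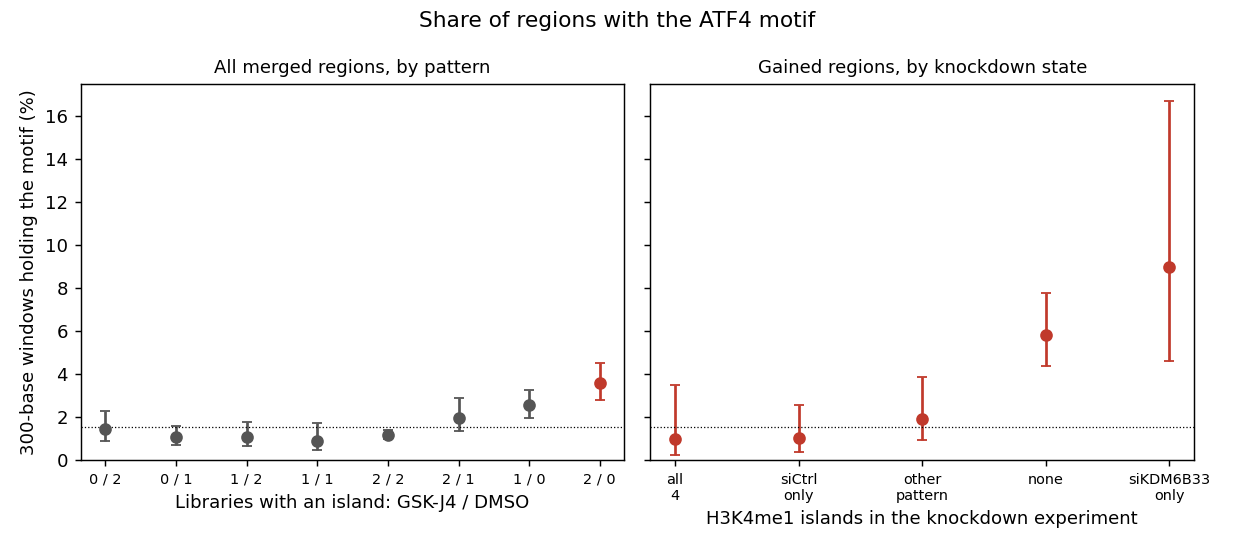
Percent of 300-base windows holding TGATGNAAT, with 95% Wilson intervals that cover counting error only; left, all merged regions by the number of GSK-J4 and DMSO libraries with an H3K4me1 island, right, gained regions by knockdown state. The dotted line is the share of all merged regions, 1.54%, and the gained regions stand at 3.58%.

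The stretches below, chosen after the values were seen, show the motif in capitals with 30 bases on each side on the hg19 plus strand (where the match is on the minus strand, its reverse complement is shown) in gained regions with it, near KRT86, NMRAL1, GADD45B and CPEB4.

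KRT86 (chr12:52674166-52674234, in a region centred in an intron): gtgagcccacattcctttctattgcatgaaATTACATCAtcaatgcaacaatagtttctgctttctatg
NMRAL1 (chr16:4501209-4501277, in a region centred in an intron): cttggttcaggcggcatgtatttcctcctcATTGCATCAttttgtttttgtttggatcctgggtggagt
GADD45B (chr19:2524940-2525008, in a region centred in an intron): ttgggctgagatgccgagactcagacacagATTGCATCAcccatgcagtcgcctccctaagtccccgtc
CPEB4 (chr5:173293290-173293358, intergenic): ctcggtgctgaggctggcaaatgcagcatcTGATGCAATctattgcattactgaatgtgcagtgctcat

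Distances to the nearest start were 2372 bp at KRT86, 21223 bp at NMRAL1, 48055 bp at GADD45B and 21152 bp at CPEB4. The region near KRT86, a hair keratin gene, had summits of 219 and 143 times background with GSK-J4 and no narrow peak in any other H3K4me1 library. At the one near NMRAL1, a redox sensor gene, the GSK-J4 summits were 201 and 179, a DMSO library gave 62.1, and the other 5 libraries gave none. Near GADD45B, a stress-inducible gene, the summits were 110 and 268 with GSK-J4, 52.7 and 0 with DMSO, 0 and 0 with siCtrl and 74.8 and 47.6 with siKDM6B33. Near CPEB4 they were 91.3 and 215 with GSK-J4, 52.7 and 0 with DMSO, 0 and 47.1 with siCtrl and 28.1 and 0 with siKDM6B33. Other gained regions with the motif differed. Near FAM216B the summits were 187 and 162 with siKDM6B33, 66.5 and 82.5 with siCtrl, 52.7 and 124 with DMSO and 146 and 125 in the GSK-J4 libraries. Near DENND2A they were 155 and 94.3 with siCtrl against 91.3 and 71.5 with GSK-J4.

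Differences in the other motifs were smaller in proportion, or rested on few windows. RUNX (TGTGGT) was in 20.0% of gained and 16.6% of all merged regions, but with the window at the middle of the region in 17.5% and 16.8%. AP-1 (TGANTCA) was in 12.5% of gained, 6.81% of lost and 10.7% of all merged regions, the nuclear receptor half-site (AGGTCA) in 20.5%, 16.0% and 17.4%, and the HAND2 E-box (CATCTG) in 28.3%, 22.8% and 24.9%. SOX (AACAATG) was in 4.2% of gained and 3.16% of all merged regions and TEAD (GGAATG) in 16.6% and 15.5%. The E2F site (GGCGGGAA) went the other way, in 0.616% (11 windows) of gained, 2.3% of lost and 1.36% of all merged regions, and farther than 1 kb from a start in 0.368%, 0.899% and 0.835%. The site of GATA factors (AGATAA) was in 13.5% of gained and 14.3% of all merged regions and the MYC E-box (CACGTG) in 4.98% and 5.84%. The homeodomain site (TAATTA) was in 5.32% and 6.09%. The core motif of CTCF, searched by name, was in 1.57% of gained and 1.7% of all merged regions. The nuclear receptor half-site was in 27.4% of gained regions with siCtrl islands only and in 13.3% of those with islands in all 4 siRNA libraries. It was in 20.8% of those with a mixed pattern, 19.2% of those with none and 15.7% of those with siKDM6B33 islands only. Of the 13 motifs, this split by knockdown state is printed for the half-site and ATF4 only. For the half-site no shares of regions not gained are given.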

How the data were processed

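CUT&Tag libraries of H3K4me1 and H3K27me3 from BE2C cells were used, 16 in all, grouped by treatment as the sample titles give it. Per the labels and the study's methods, the authors aligned reads to hg19 with BWA 0.7.12, removed duplicates with Picard 1.65, used SAMtools 1.3.1, and called each library separately. The deposited island lists hold a SICER 1.1 island score, which grows with depth and width. The deposited narrow peak lists hold the fold enrichment of each summit over the background of its library and its −log10 p. Reads per region and the authors' spike-in scaling were not used here, so calls depend on depth.

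From these lists, islands were merged with Python 3.11.15, NumPy 2.4.6 and pandas 2.3.3 at an overlap of at least 1 bp, on the 22 autosomes. Genome background, in tags per base, was solved from the fold and −log10 p of narrow peaks and stood for depth: it was 0.0483 to 0.107 for H3K4me1 and 0.0298 to 0.0539 for H3K27me3. A summit lying in a region gave its height, and a region without one was set to 0. Distances were taken to 53322 protein-coding transcription starts of the GENCODE 44 annotation lifted to GRCh37, and sequences were read from that genome with pysam 0.24.0.

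The percent of regions overlapping an island was compared between groups of 2 libraries by an exact two-sided permutation test, whose smallest p is 0.333, in 3 comparisons with Benjamini-Hochberg adjustment. Shares have 95% Wilson intervals (SciPy 1.17.1). The scripts were tested on simulated data. Named regions were the 8 with the highest lower GSK-J4 island score, the 5 highest in each of 3 knockdown states, and the 3 highest with H3K27me3 gained. Some items that these rules or the motif search cover are not reported here. Named genes were the 8 nearest to most gained regions, and up to 6 from each of 11 lists. Alternatives covered the length and number of islands, joining, coverage, narrow peaks, the window around a start, each library left out and a replicate block. The ATF4 motif windows were added after seeing the data. The regions, gene lists and motifs were chosen with earlier results of these data known.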

Additional observations from a re-analysis of the deposited data

How the results depend on the processing

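The number of gained regions, 1787 as called, depended on the island lists. It was 1109 with lists cut to equal covered length, where lost regions numbered 1400 and so exceeded gained ones, 1023 (and 2829 lost) with GSK-J4 islands of at least 2 kb, a limit set on the GSK-J4 lists alone, 1027 with a narrow peak in both GSK-J4 libraries and 797 with none in either DMSO library. Leaving out one library gave 2194 to 3093, the values without DMSO replicate 1, GSK-J4 replicate 1 and GSK-J4 replicate 2 being 2683, 2973 and 3093. Without DMSO replicate 2 lost regions numbered 2537 against 2194 gained. The share with a start within 1 kb, 8.73%, was 11.3% with at least 50% of the region covered, 16.6% with starts within 5 kb, 28.7% with starts of all genes, and 8.57% to 11.1% with one library left out. The H3K4me1 difference between siKDM6B33 and siCtrl, -21.4 points, kept its direction in all 21 alternatives run, from -29.0 to -16.9, and from -23.7 to -17.2 with one library left out. The H3K27me3 difference with GSK-J4, 4.36 points, ranged from 0.42 (equal covered length of the compared lists) to 9.4 (narrow peaks), and from 1.23 to 7.5 with one library left out. The H3K27me3 difference after knockdown, 0.196 points, was -1.09 with equal covered length of the compared lists and 0.0 with a narrow peak in both GSK-J4 libraries, and 0.0745 to 0.404 with one library left out; the cause was not tested.

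With the replicate number as a block, the 3 differences were -21.4, 4.36 and 0.196 points, each with an exact p of 0.5, the smallest that 2 pairs allow. Deviations of same-numbered libraries correlated at -0.0254 to 0.0402, so the numbers were not taken to pair the libraries.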
